A study of Mus musculus with 10 samples.

Results

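The genes described here were Gas1 and 8 genes at the centre of the Hedgehog pathway, Shh, Ihh, Dhh, Ptch1, Hhip, Gli1, Gli2 and Gli3. They make up 9 of the 24500 genes counted, and all 9 symbols were found in the tables of both antibodies. Gas1 was chosen by its fall of EZH2 in mutant cells in earlier results of these data, and the other genes were added for their place in the pathway with the same results known. EZH2 values at these genes are therefore given as a description without a test. The H3K27me3 comparison uses other libraries than those of that choice and is tested. These libraries come from the same genotypes, and EZH2 is the enzyme that places H3K27me3, so the choice was not blind to this comparison. A fall of H3K27me3 at Gas1 is favoured by how Gas1 was chosen. The H3K27me3 p-values of the chosen genes are therefore not independent evidence.

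The samples were control cells, which are wild-type E14 mouse ES cells, and ex14D cells, the same background in which CRISPR-Cas9 had introduced an in/del into exon 14 of Ezh2. The isoform that contains this exon is then disrupted and the isoform that skips it remains, whereas the labels call the mutant a knockout of the exon. The titles of the mutant samples read Ezh2KO, a name that the paper also uses for Ezh2 knockout cells, which it compares with ex14D cells. Each genotype had 2 H3K27me3 libraries, 2 EZH2 libraries and 1 input library, 10 libraries in all. Targeted colonies were picked as cell lines, and nothing in the labels says whether the 2 libraries of a group came from separate lines or cultures, so p-values measure only the spread between these samples, which may be technical. ChIP-seq counts cannot check the genotype of the cells.

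Hedgehog ligands are secreted proteins that carry positional information in the embryo. They bind the membrane protein PTCH1, which otherwise holds the transducer SMO inactive, and the signal ends in the nucleus with the GLI transcription factors. GAS1 is a membrane-anchored co-receptor that binds Hedgehog ligands. EZH2 is the methyltransferase of Polycomb repressive complex 2 (PRC2), which trimethylates lysine 27 of histone H3 (H3K27me3), and many developmental regulators carry this mark in ES cells.

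The promoters that carry the findings below are shown here for their CG content, since promoters marked by PRC2 in ES cells are known to be rich in CG dinucleotides. RefSeq promoters of GRCm38.p6 were matched for 7 of the 9 genes, and Shh and Gli1 were not matched. The 250 bases before the annotated start are printed 5′ to 3′ along the direction of transcription, with each CG dinucleotide in capitals. The first 3 belong to the genes whose H3K27me3 changed most clearly or whose ligand role is discussed, and the last is the downstream start of Ptch1, which lies in a stretch covered differently by the 2 antibodies.
Gas1 (chr13:60177536-60177785, reverse strand): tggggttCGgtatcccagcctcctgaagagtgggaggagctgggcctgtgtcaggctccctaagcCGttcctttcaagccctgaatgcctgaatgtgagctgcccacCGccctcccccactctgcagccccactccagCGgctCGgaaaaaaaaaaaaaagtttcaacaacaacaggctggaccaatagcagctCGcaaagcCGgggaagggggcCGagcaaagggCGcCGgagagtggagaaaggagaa
Ihh (chr1:74951673-74951922, reverse strand): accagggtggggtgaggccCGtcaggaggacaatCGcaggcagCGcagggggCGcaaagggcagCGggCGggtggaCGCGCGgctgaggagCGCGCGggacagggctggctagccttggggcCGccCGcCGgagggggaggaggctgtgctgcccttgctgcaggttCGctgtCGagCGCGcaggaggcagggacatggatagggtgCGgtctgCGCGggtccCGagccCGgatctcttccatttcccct
Dhh (chr15:98898541-98898790, reverse strand): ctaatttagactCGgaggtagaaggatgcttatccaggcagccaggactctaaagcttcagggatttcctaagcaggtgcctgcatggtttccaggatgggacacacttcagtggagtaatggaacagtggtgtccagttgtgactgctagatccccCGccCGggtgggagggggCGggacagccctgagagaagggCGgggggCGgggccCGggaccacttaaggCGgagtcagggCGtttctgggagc
Ptch1, downstream start (chr13:63565736-63565985, reverse strand): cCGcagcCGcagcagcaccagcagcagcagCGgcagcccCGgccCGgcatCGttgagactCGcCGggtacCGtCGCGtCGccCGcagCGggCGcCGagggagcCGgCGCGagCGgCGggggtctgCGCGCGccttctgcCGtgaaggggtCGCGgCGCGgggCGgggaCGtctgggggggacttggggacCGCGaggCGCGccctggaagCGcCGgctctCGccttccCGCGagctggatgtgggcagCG

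The Gas1 stretch held 10 CG dinucleotides and the Dhh stretch 9, the lowest numbers among the 7 genes. That of Ihh held 24 and that of Ptch1 held 41, the highest number. The other 3 lay between them, with 22 for Gli2, 28 for Hhip and 34 for Gli3. Over all 32851 promoters of the same length in the RefSeq table the median was 6, and 62.2% of promoters had fewer CG dinucleotides than Gas1. GC content ranged from 58.8% at Gas1 to 78.4% at Ptch1, against a median of 52.4%. The GLI consensus GACCACCCA, searched as these exact letters on both strands, was found in 0 of the 7 stretches and in 0.225% of all promoters.

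Reads counted on genes numbered 594289 to 1450937 in the H3K27me3 libraries, 13628137 to 18403892 in the EZH2 libraries and 409371 to 416778 in the inputs. Levels are given as CPM, the count scaled to a fixed total of reads on genes. H3K27me3 and input reads were counted in a window of 1 kb centred on the start, so these levels can be compared between genes, and EZH2 reads were counted over the gene, so EZH2 levels are compared only per kb. Of 6 pluripotency genes examined as markers of ES cells (Pou5f1, Nanog, Zfp42, Esrrb, Klf4 and Sox2), 1 promoter, that of Klf4, carried at least 2-fold more H3K27me3 than input in both control libraries and 0 did in ex14D. The libraries hold relative counts, and a change of the total amount of either mark between genotypes cannot be read from them. By Western blot the paper reports lower total EZH2 and H3K27me3 in ex14D lines. Its ChIP-PCR found less H3K27me3 at the developmental genes it assayed. A rise or fall below is therefore relative to the other genes, and whether the amount of H3K27me3 at a gene rose was not tested.

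In control cells H3K27me3 at the 9 promoters spanned a wide range, with the ligand genes Ihh and Dhh and the receptor gene Ptch1 at the top. Ihh, the ligand of skeletal growth and gut patterning, had 716 ± 42.0 CPM (SD, n = 2). Ptch1 had 399 ± 178 CPM and Dhh, the ligand of testis and peripheral nerve, had 371 ± 15.8 CPM. Ihh stood above Ptch1 and Dhh in both libraries, whereas Ptch1 and Dhh overlapped. Gli1, Hhip, Gas1, Gli2 and Gli3 followed with means from 132 down to 52.3 CPM, each overlapping its neighbour in this order. The order was more clearly spaced in ex14D cells, in which Ihh had 1298 ± 157 CPM, Dhh 422 ± 22.7 CPM, Ptch1 258 ± 0.881 CPM and Hhip 81.4 ± 8.63 CPM with no overlap between these neighbours. Gas1, Gli1, Gli2 and Gli3 lay together between 24.8 and 42.7 CPM in the ex14D libraries. Shh is left out of this order because its window is counted differently, as described with its values.

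**Figure D1:**
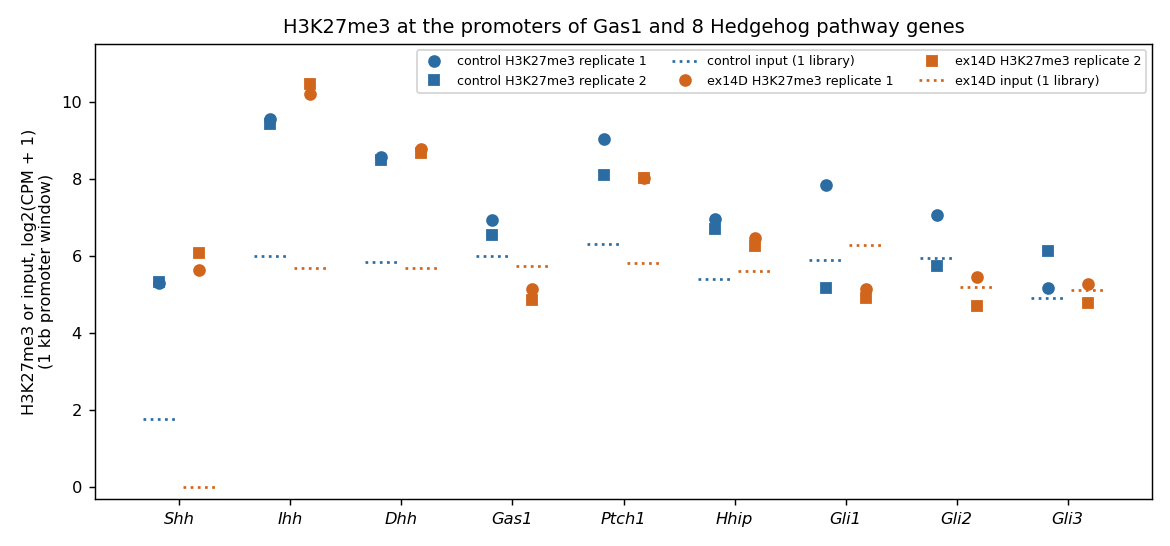
H3K27me3 in the 1 kb promoter window of each gene, as log2(CPM + 1), for 2 control libraries (blue) and 2 ex14D libraries (orange), with the single input of each genotype as a dotted line. Ihh and Dhh lie above their inputs in all 4 libraries and higher in ex14D, while Gas1 lies above its input in control and below it in ex14D on this scale.

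Relative to its own input, H3K27me3 was at least 2-fold enriched in both control libraries at 5 of the 9 promoters, Shh, Ihh, Dhh, Ptch1 and Hhip, against 11.3% of all genes. In ex14D it was enriched at 4, the same without Hhip, against 9.14% of all genes. The enrichment is log2((CPM + 1)/(input CPM + 1)), and the input has no replicate. Ihh had a mean of 3.47 in control and 4.66 in ex14D. The values of Dhh were 2.70 and 3.04, and those of Ptch1 were 2.26 and 2.20. Hhip, which encodes a membrane protein that binds and sequesters ligands, had 1.42 in control and 0.75 in ex14D, below the 2-fold limit in both ex14D libraries. Gas1 had 0.73 in control and −0.74 in ex14D. This scale sets the reads on genes equal between ChIP and input, and the median of all genes on it lay between −1.92 and −1.45. When all counted reads were used instead, an alternative chosen after seeing the data, that median lay between −0.14 and 0, Gas1 stood at 2.26 in control and 1.07 in ex14D, and 8 of 9 promoters in control and 7 in ex14D were enriched, against 21.1% and 18.1% of all genes. Gas1 in ex14D thus stood below input on the first scale and above it on the second.

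Between genotypes, H3K27me3 was compared with edgeR over the 14883 genes that passed its filter on low counts, which all 9 genes did. In ex14D 2 of the 9 rose, Ihh and Dhh, and 2 fell, Gas1 and Gli1, while the other 5 did not pass the threshold of 0.05 on the adjusted p-value. Over all genes tested 5.85% rose and 3.19% fell. The median log2 fold change of the 9 genes was −0.17, beside −0.02 over all genes. TMM normalization raised log2 fold changes by 0.45 compared with the ratio of CPM, and without it the median of all genes was −0.47, so changes are given relative to the TMM scale, on which the median gene barely moved.

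Among the ligand genes, Ihh had 745 and 686 CPM in control and 1188 and 1409 CPM in ex14D. Both ex14D libraries stood above both control libraries, as they did in CPM at 9.1% of all genes tested. Its log2 fold change was 1.31 ± 0.20 (SE) with an adjusted p of 5.998e-05 (edgeR), and it passed the threshold in all 11 alternatives, with values from 0.86 to 1.43 and adjusted p-values from 1.562e-13 to 0.0494. Dhh had 382 and 359.6 CPM in control and 438 and 406 CPM in ex14D, again without overlap. Its log2 fold change was 0.64 ± 0.19 with an adjusted p of 0.0375 (edgeR). The direction of Dhh was the same in all 11 alternatives but the call was kept in 3 of them, and with the library size over gene rows alone the change was 0.19 with an adjusted p of 0.517.

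Shh, the ligand of the floor plate and the limb, had only 23 and 37 reads in control and 71 and 83 reads in ex14D. Its start lies 117 bp from that of the divergent transcript 9530036O11Rik, so that the windows of the 2 genes share 883 bp and 117 bp belong to Shh alone, and htseq-count by default assigns reads on shared bases to neither gene. In CPM the values were 38.7 and 39.5 in control and 48.9 and 66.5 in ex14D, with no overlap. The log2 fold change of 1.01 ± 0.33 missed the threshold, with an adjusted p of 0.0519 (edgeR), and over the 11 alternatives it ranged from 0.56 to 1.22 with adjusted p-values from 0.0143 to 0.562. 9530036O11Rik, whose count comes from the same promoter region, had 29 and 49 reads in control and 170 and 183 in ex14D and rose by a log2 fold change of 1.83 ± 0.27 with an adjusted p of 4.462e-05 (edgeR). Of the inputs, that of control held 1 read in the Shh window and that of ex14D held 0. The ratio of H3K27me3 to input was 15.8 (exact 95% interval 2.57 to 653) and 16.2 (2.73 to 655) for the control replicates, and at least 6.80-fold and 9.24-fold for the ex14D replicates when 3 counts were taken as the floor of the input. These limits cover counting error only.

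Gas1 had 121 and 92.8 CPM of H3K27me3 in control and 34.5 and 28.0 CPM in ex14D. These values rest on 72 and 87 reads in control and on 50 and 35 reads in the deeper ex14D libraries, and the groups did not overlap. In CPM, before TMM scaling, both ex14D libraries lay below both control libraries at 51.2% of all genes tested. The log2 fold change was −1.31 ± 0.31 with an adjusted p of 0.00534 (edgeR), a p-value that is not independent of how Gas1 was chosen. The fall was seen in all 11 alternatives, from −1.76 to −1.14. The call was kept in the 7 alternatives that used all 4 libraries and lost when control replicate 2, ex14D replicate 1 or ex14D replicate 2 was left out, with adjusted p-values of 0.0514, 0.0772 and 0.213.

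Of the genes of reception and feedback, neither Ptch1 nor Hhip passed the threshold. Ptch1, itself a target of the pathway, had 525 and 273 CPM in control and 258 and 257 CPM in ex14D. One control library stood apart from the other 3, and the log2 fold change was −0.17 ± 0.24 with an adjusted p of 0.756 (edgeR). Hhip had 125 and 102 CPM in control and 87.5 and 75.3 CPM in ex14D. On the TMM scale its log2 fold change was −0.02 ± 0.26 with an adjusted p of 0.979 (edgeR), and it was −0.47 with the library size over gene rows alone.

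The transcription factor genes had low counts that varied between the control libraries. Gli1, the GLI factor whose transcription reads out pathway activity, had 229 CPM in control replicate 1 but 35.2 CPM in control replicate 2, and 34.5 and 28.8 CPM in ex14D. The second control library did not differ from the ex14D libraries by more than they spread. The log2 fold change of −1.56 ± 0.48, with an adjusted p of 0.0377 (edgeR), rested on control replicate 1, without which it was 0.27 with an adjusted p of 0.753. Gli2, the main activator among the GLI factors, had 133 and 52.3 CPM in control and 42.7 and 24.8 CPM in ex14D. Its log2 fold change was −0.96 ± 0.38 with an adjusted p of 0.122 (edgeR) and −0.19 without control replicate 1. Gli3, which acts mainly as a repressor, had 35.3 and 69.4 CPM in control and 37.9 and 26.4 CPM in ex14D, so that the groups overlapped. Its log2 fold change was −0.29 ± 0.35 with an adjusted p of 0.715 (edgeR).

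EZH2 per kb separated the short genes from the long ones. In control libraries Shh had 38.4 and 37.5 CPM per kb, Ihh 29.8 and 27.04, and Gas1 17.6 and 19.5, all far above the median of 0.967 over genes in each of these libraries. Of all genes with EZH2 reads, 99.3%, 99.0% and 98.5% had a lower mean per kb than Shh, Ihh and Gas1. Ptch1 had 1.70 and 1.87 CPM per kb. Gli2 with 1.08 and 1.13 and Gli3 with 0.941 and 0.916 lay near the median. These are averages over the gene, and EZH2 domains covered 0.855% to 3.01% of Gli2 and Gli3, 9.92% to 16.1% of Ptch1, but 81.0% to 100% of Gas1, 89.2% to 100% of Ihh and all of Shh in the control libraries.

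In ex14D the level at Gas1 was 6.16 and 3.34 CPM per kb, with both libraries far below the control pair. This corresponds to 263 and 172 reads against 765 and 1126, and the log2 fold change was −2.04 ± 0.21. Shh stood at 25.0 and 16.0 CPM per kb in ex14D and had a log2 fold change of −0.93 ± 0.17. Ihh stood at 19.8 and 13.1 CPM per kb, with −0.83 ± 0.17, and Ptch1 at 1.51 and 1.31 CPM per kb, with −0.38 ± 0.08. In CPM the 2 genotypes did not overlap at any of these 4 genes, an order seen at 18% of the 13401 genes fitted, and ex14D replicate 2 was the lower ex14D library at each. Gli2 had 1.11 and 1.14 CPM per kb and Gli3 0.932 and 0.958, with a log2 fold change of −0.02 for both, SE 0.04 and 0.03, and groups that overlapped. Domains covered at most 3.01% of these genes in control, so these averages do not measure EZH2 near the start. The domains near the start were 7 and 8 kb at Gli2 in control and 1 and 4 kb in ex14D. At Gli3 they were 3 and 4 kb in control and 2 kb in each ex14D library, differences that were not tested.

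**Figure D2:**
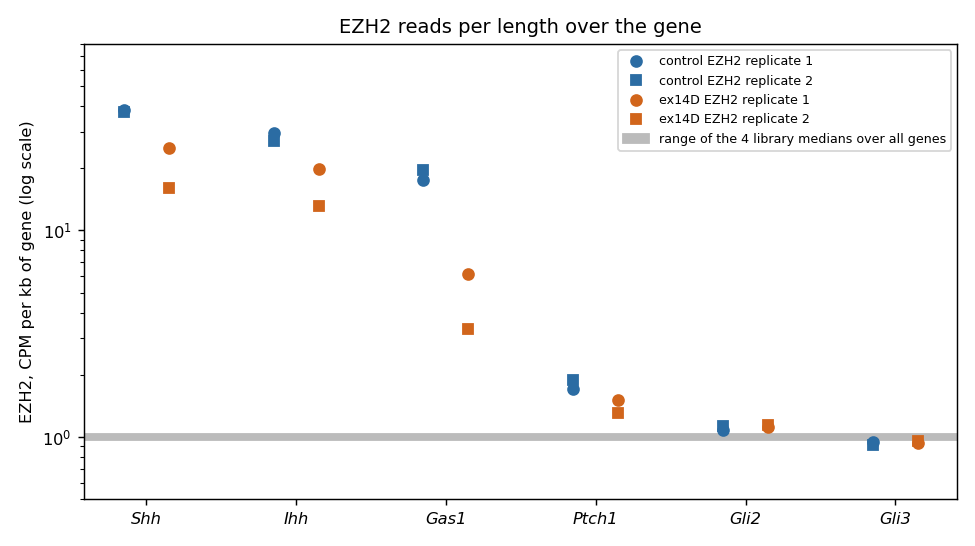
EZH2 reads per kb of gene, in CPM on a log scale, for 2 control libraries (blue) and 2 ex14D libraries (orange), with the range of the 4 library medians over all genes as a grey band. Shh, Ihh and Gas1 lie far above the band and are lower in ex14D, with Gas1 at 3.34 and 6.16 CPM per kb there, while Gli2 and Gli3 lie at the band in both genotypes.

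Dhh, Gli1 and Hhip are listed at 0 in all 4 EZH2 libraries. Each lies in a long stretch of neighbouring genes that are all listed at 0, 684 genes around Dhh on chromosome 15, 1098 around Gli1 on chromosome 10 and 541 around Hhip on chromosome 8. In all, 10575 genes were at 0 in every EZH2 library. EZH2 domains were nevertheless called at these genes, so a 0 here is not a measured absence, and no EZH2 level or fold change is given for them.

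At Ihh and Shh the differences of the 2 antibodies thus had opposite signs, and at Gas1 the same sign. Relative to other genes, the log2 fold change of Ihh was 1.31 for H3K27me3 and −0.83 for EZH2, and Shh had 1.01 and −0.93. The H3K27me3 value of Shh missed the threshold, with an adjusted p of 0.0519 (edgeR), and rests on the 117 bp that belong to Shh alone. The fold enrichment of its called peak went the other way, from 7.48 and 6.94 in control to 5.54 and 5.64 in ex14D. Gas1 had −1.31 and −2.04, the most negative EZH2 value of the 6 genes. As Gas1 was chosen by this fall, its rank is not a result. The H3K27me3 values are those of the promoter window and the EZH2 values those of the gene.

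**Figure D3:**
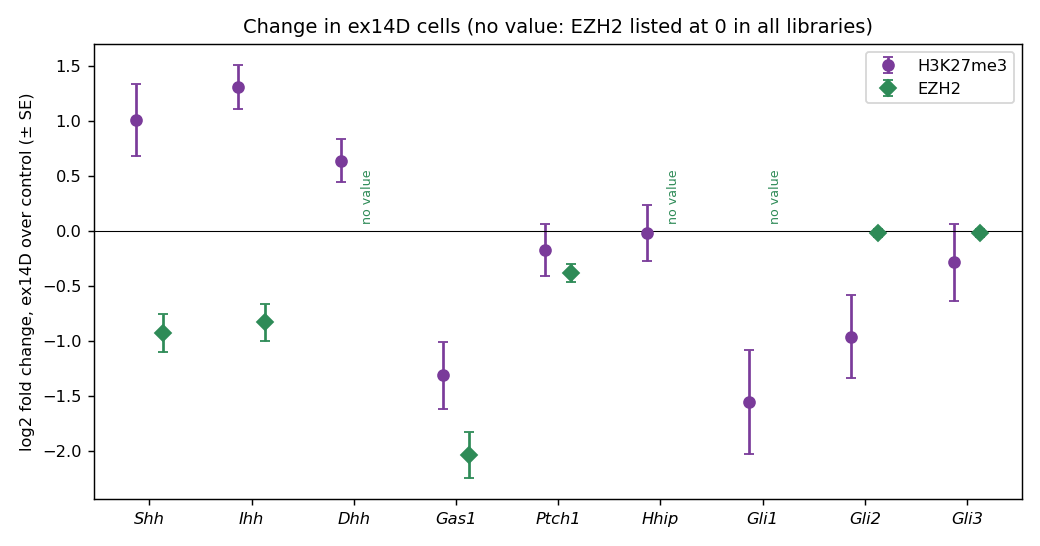
Log2 fold change of ex14D over control with its SE for H3K27me3 (purple circles, promoter window) and EZH2 (green diamonds, whole gene), 2 libraries against 2 for each antibody, with “no value” for the 3 genes listed at 0 in all EZH2 libraries. Shh and Ihh lie above the line for H3K27me3 and below it for EZH2, while Gas1 lies below it for both. The H3K27me3 value of Shh missed the threshold.

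Intervals called by the authors in each library gave positions along the gene, which the counts do not. The edges of EZH2 domains all lie on a grid of 1 kb, so their positions are no finer than the 1 kb window. An H3K27me3 peak overlapped the 1 kb window in both control libraries at 7 of 9 genes, against 18.2% of all genes placed, and in both ex14D libraries at 6, against 16.7%. An EZH2 domain did so in both control libraries at 8 genes, against 16.9%, and in both ex14D libraries at 5, against 10.5%. Shh, Ihh, Dhh and Ptch1 had both kinds of interval in every library. Peaks and domains were called separately in libraries of different depth, and their changes were not tested.

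The intervals lay over most of each ligand gene. At Shh they covered 98.4% to 100% of the gene, and H3K27me3 peaks were 14.7 to 16.8 kb wide and EZH2 domains 12 to 16 kb, on a gene of 10262 bp. At Ihh the H3K27me3 peak over the start had a fold enrichment of 4.35 and 3.46 in control and 31.2 and 21.4 in ex14D, as the peak caller gave it without a test between libraries. At the other genes this value did not follow the counts throughout, with 7.48 and 6.94 against 5.54 and 5.64 at Shh and 7.86 and 1.75 against 1.83 and 8.05 at Gas1. It was 2.42 and 2.92 against 2.56 and 5.99 at Dhh. The width of the Ihh peak was 8.31 and 13.6 kb against 8.45 and 8.05 kb. The EZH2 domain there was 8 and 12 kb wide in control and 6 and 7 kb in ex14D, and covered 73.5% of Ihh in both ex14D libraries. H3K27me3 covered 82.1% to 84.6% of Dhh. Dhh had EZH2 domains of 7 and 8 kb in control and 6 kb in both ex14D libraries, although it had no counted EZH2 read.

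At Gas1 the start lay outside the interval in 1 library of each antibody. EZH2 domains of 3 and 5 kb in control and of 3 kb in ex14D replicate 1 reached 465 bp upstream of the start. The domain of 2 kb in ex14D replicate 2 began 535 bp downstream of the start and missed the window. These positions are neighbouring edges of the 1 kb grid, so the size of a shift cannot be read from them. The H3K27me3 peak of ex14D replicate 2 began 450 bp downstream, while in the other 3 libraries it reached 715 to 887 bp upstream. A domain thus lay over the gene in both ex14D libraries, covering 81.0% and 63.9% of it. Replicate numbers of different antibodies name separate libraries.

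Ptch1 has 2 annotated starts, at 63573460 and 63565735 on chromosome 13. The upstream start lay in an H3K27me3 peak and in an EZH2 domain in all 4 libraries of each antibody. The downstream start, whose promoter is printed above with 41 CG dinucleotides, lay in an EZH2 domain in all 4 libraries but in an H3K27me3 peak only in control replicate 1. The counted window is taken to lie at the upstream start, the 5′-most one in RefSeq, but the counts do not state which start was used. Control replicate 1 was also the library whose Ptch1 count stood apart, at 525 CPM. Hhip had EZH2 domains of 2 to 3 kb in 3 libraries and none in ex14D replicate 2, while its H3K27me3 peak of 2.94 to 4.42 kb was called in all 4.

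Among the GLI genes the intervals at the start differed between libraries. At Gli1 an H3K27me3 peak of 1.96 kb covered the start in control replicate 1 and an EZH2 domain of 2 kb covered it in control replicate 2, and neither was called over the start in the other libraries, although a peak of 0.327 kb began 305 bp downstream in ex14D replicate 2. A peak or domain was called in each of the 8 ChIP libraries between 11.6 and 17.9 kb downstream of the Gli1 start. These lay past the end of Gli1, except that the EZH2 domain of control replicate 2 also reached into it. At Gli2 EZH2 domains of 7 and 8 kb in control stood against 1 and 4 kb in ex14D, and the domain of ex14D replicate 1 began 619 bp downstream of the start. At Gli3 the EZH2 domain covered the start in all 4 libraries, but the H3K27me3 peaks of both ex14D libraries flanked it. They ended 728 and 956 bp upstream and began again 697 and 995 bp downstream, while control replicate 2 had 1 peak of 5.45 kb across the start. The peak of control replicate 1 began 1029 bp downstream and also left the start uncovered.

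**Figure D4:**
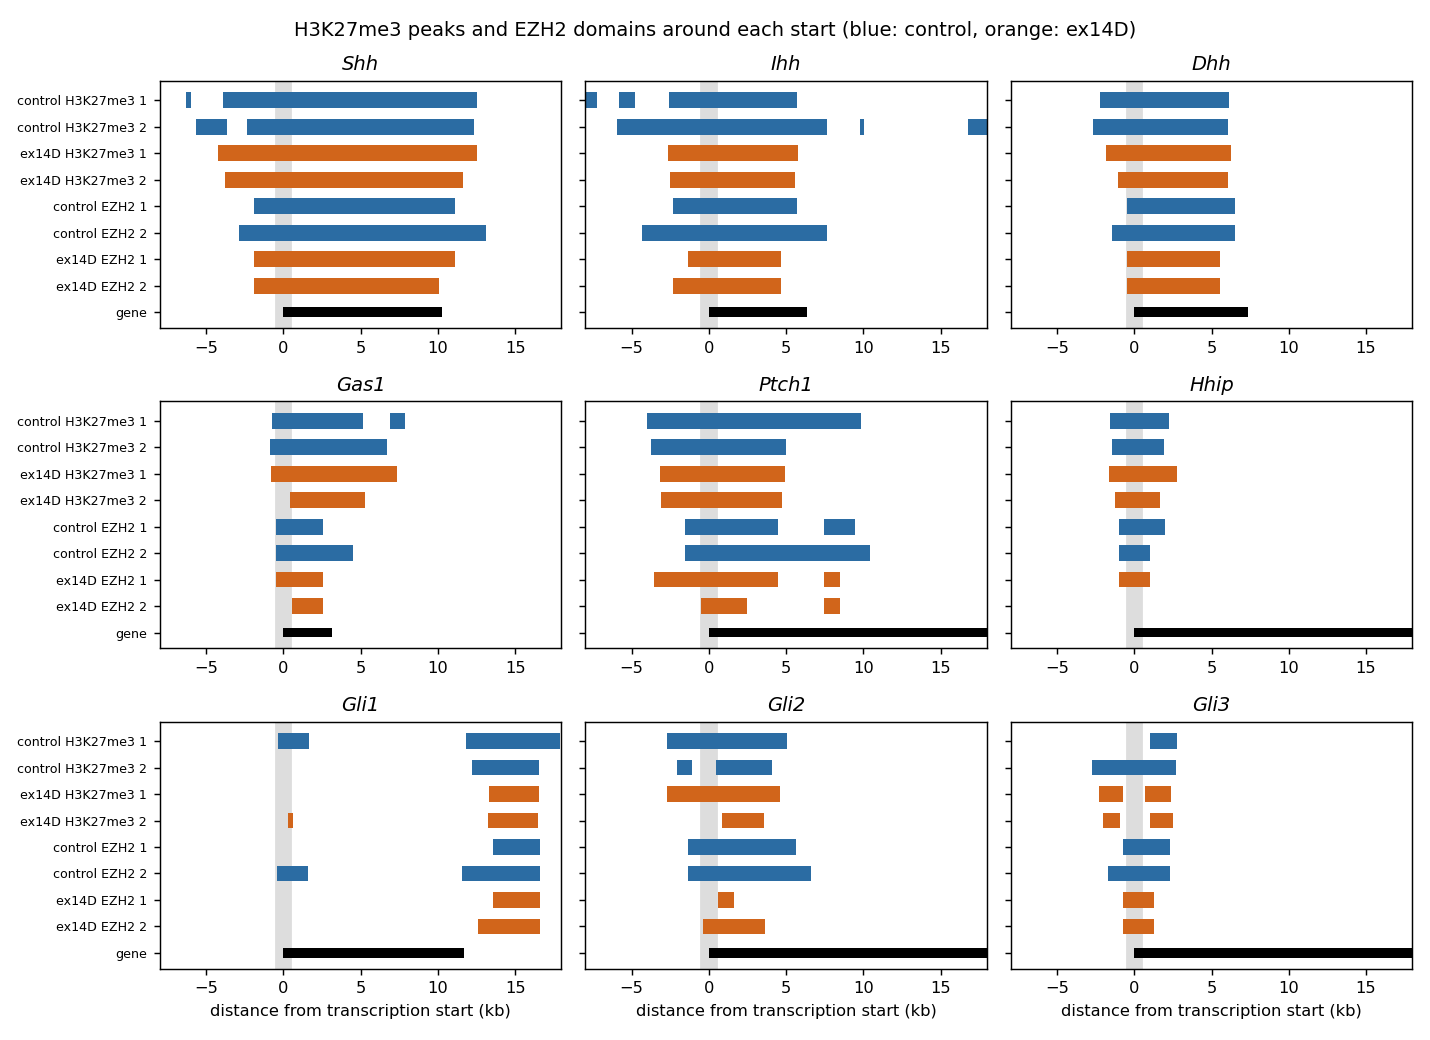
H3K27me3 peaks and EZH2 domains by distance from the transcription start in kb, 1 row per library (blue control, orange ex14D), with the gene as a black bar and the 1 kb window in grey, drawn from 8 kb upstream to 18 kb downstream. Shh, Ihh and Dhh are covered over 73.5% to 100% of the gene in each library. Gas1 has no EZH2 domain at its start in ex14D replicate 2, and edges of EZH2 domains lie on a 1 kb grid. The H3K27me3 peaks of Gli3 leave the start uncovered in both ex14D libraries and control replicate 1.

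The rest of the pathway was described with a list of 42 genes sorted by role, of which 32 were tested for H3K27me3 and 29 for EZH2. This list was also chosen with earlier results of these data known, so its calls and p-values are read as a description for both antibodies. H3K27me3 rose at 7 of them with edgeR and fell at 0 (1 at an unadjusted p under 0.05 and 0 with DESeq2), beside 5.85% higher and 3.19% lower over all genes tested, and the median log2 fold change was 0.24 against −0.02 over all genes. Target genes of the pathway made up 6 of the 7, out of 12 tested. At least 2-fold H3K27me3 over input was seen in both control libraries at 11 of the 13 listed target genes. It was seen at 4 of 8 genes of ligand release and spread, 0 of 3 of reception and 0 of 18 of the cilium and cytoplasm. A split of these calls by role thus cannot be told apart from a split by H3K27me3 level in control. The largest rises were those of Foxa2, a factor of the floor plate and endoderm, Nkx2-2, a factor of the ventral neural tube, and Foxl1, a factor of the gut mesenchyme. Foxa2 went from 434 and 402 CPM in control to 865 and 1155 CPM in ex14D, a log2 fold change of 1.73 ± 0.21 with an adjusted p of 4.503e-06 (edgeR). Nkx2-2 went from 400.5 and 382 CPM to 857 and 1033 CPM, with 1.72 ± 0.20 and an adjusted p of 3.668e-06 (edgeR). Foxl1 went from 629 and 548 CPM to 1205 and 1452 CPM, with 1.63 ± 0.21 and an adjusted p of 7.388e-06 (edgeR). The groups did not overlap at any of the 3. Spop, a ubiquitin ligase adaptor, was the other gene that rose, with 1.02 ± 0.26. Without control replicate 2 the number that rose was 3.

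EZH2 fell at 9 genes of the list with edgeR and rose at 0 (0 at an unadjusted p under 0.05 and 0 with DESeq2), beside 7.88% lower and 0.0522% higher over the 13401 genes tested, with a median log2 fold change of −0.02. All 9 were target genes, out of 12 tested. Because of how the list was chosen, these EZH2 calls are no independent evidence. The largest falls were those of Bmp4, a secreted growth factor, Ccnd1, cyclin D1, and Pthlh, the hormone-like partner of Ihh in cartilage. Bmp4 went from 51.5 and 48.6 CPM over the gene to 28.3 and 17.2 CPM, a log2 fold change of −1.20 ± 0.19 with an adjusted p of 0.00969 (edgeR). Ccnd1 went from 31.2 and 27.4 CPM to 15.1 and 14.1 CPM, with −1.04 ± 0.09 and an adjusted p of 0.00342 (edgeR). Pthlh went from 39.8 and 38.4 CPM to 24.7 and 16.3 CPM, with −0.99 ± 0.16 and an adjusted p of 0.011 (edgeR). H3K27me3 at these 3 promoters did not pass the threshold, with log2 fold changes of 0.27, 0.01 and 0.38. Without either control library the fit called 0 genes of any kind for EZH2, against 10 list genes lower at an unadjusted p under 0.05.

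At 5 genes of the list, Ccnd2, Foxa2, Foxf1, Foxl1 and Nkx2-2, H3K27me3 rose and EZH2 fell with both past the threshold. They were 5 of the 23 list genes tested for both antibodies, beside 3.38% of the 8533 such genes in all. The genes of ligand release and spread, such as Disp1 and the Scube genes, held 0 calls for H3K27me3 among 8 tested with edgeR (1 lower at an unadjusted p under 0.05, 0 with DESeq2), with log2 fold changes from −0.65 to 0.42. The co-receptors Boc and Cdon, which act beside GAS1, and the transducer gene Smo also held 0 calls for H3K27me3 with edgeR (0 at an unadjusted p under 0.05, 0 with DESeq2), from −0.83 to 0.38. Of the genes of the cilium and the cytoplasm, 9 were tested and only Spop was called. EZH2 at the genes of these 3 roles lay between −0.28 and 0.12 on the log2 scale with 0 calls among 17 tested with edgeR (2 lower at an unadjusted p under 0.05, 0 with DESeq2). Where a gene length was known, their control EZH2 was 0.453 to 1.58 CPM per kb, near the median of 0.967. The called target genes had 2.04 to 46.8. Of the uncalled target genes, Bcl2 had 0.937 and 0.902, Mycn 1.34 and 1.45, and Foxf2 45.4 and 40.7. The split by role thus cannot be told apart from a split by EZH2 level over the gene. The other 13 genes of the list are listed at 0 in all EZH2 libraries.

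**Figure D5:**
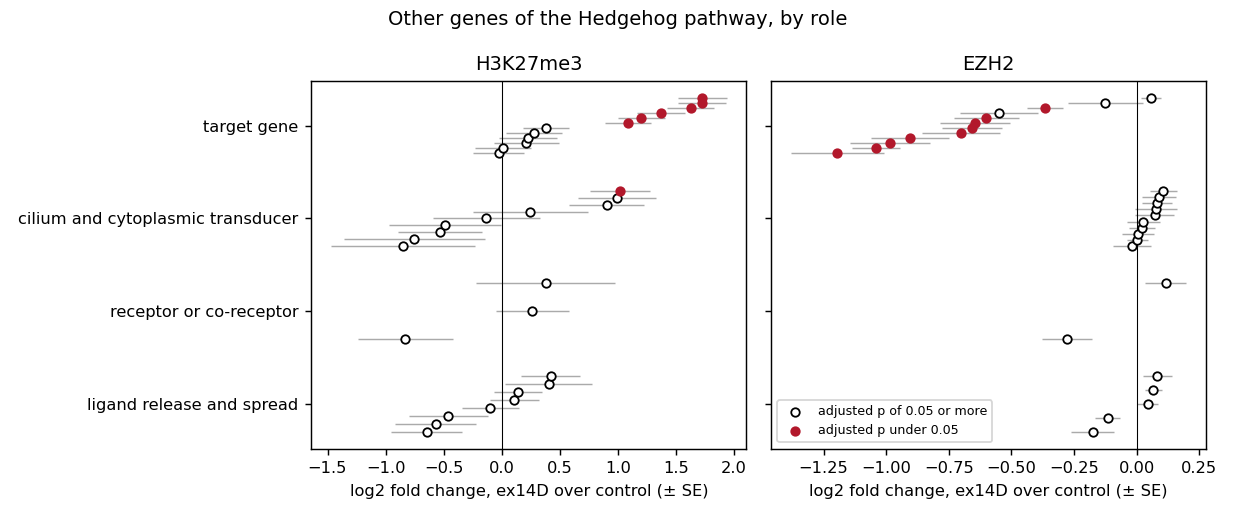
Log2 fold change of ex14D over control with its SE for each tested gene of the list of 42, by role, for H3K27me3 (32 genes) and EZH2 (29 genes), with genes past the threshold filled. The filled points lie among the target genes, to the right for H3K27me3 and to the left for EZH2, except Spop among the transducers.

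The genes with the pattern most like that of Gas1 were sought by the Euclidean distance over the 8 ChIP libraries of log2(CPM + 1), centred within each antibody, among 8229 genes. They were Fzd8, a Wnt receptor gene, at a distance of 0.442, Klf4, a pluripotency factor gene, at 0.824, and Tmem158, a membrane protein gene, at 0.835. H3K27me3 at Fzd8 was 189 and 141 CPM in control and 69.6 and 52.1 CPM in ex14D. EZH2 at Fzd8 was 48.8 and 51.1 CPM in control and 21.0 and 10.6 CPM in ex14D. Log2 fold changes of H3K27me3 were −0.97, −0.88 and −0.90 at the 3 genes, and those of EZH2 were −1.73, −1.45 and −1.53, each smaller in size than at Gas1. Since Gas1 was chosen by its EZH2 fall, nothing is read from this order.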

How the data were processed

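Control and ex14D ES cells were profiled by ChIP-seq for H3K27me3 and EZH2. According to the study's methods the authors aligned reads to mm10 with Bowtie, and htseq-count was used for counting. The submitters' processing notes name Trimmomatic and Bowtie2. The deposited counts are raw, not normalized, and were taken in 1 kb promoter windows for H3K27me3 and input. The methods give the same windows for EZH2, but the deposited EZH2 counts followed gene length and are treated as counts over genes. Rows that name no gene held 98.1% of reads in the inputs, 92.4% to 94.4% for H3K27me3 and 55.7% to 56.1% for EZH2 and stayed out of library sizes. The authors called MACS2 peaks and hiddenDomains domains per library, and the deposited fold enrichment (a ratio) and −log10 q-value of a peak are those of MACS2. The H3K27me3 hiddenDomains files were not used, because 143 to 270 of their intervals run past chromosome ends of GRCm38. Peak and domain positions were read on GRCm38, on which 23514 of 24500 genes were placed by RefSeq.

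Counts were compared with edgeR 4.0.16 in R 4.3.3 (filterByExpr, TMM, quasi-likelihood F test, Benjamini-Hochberg adjustment over all genes tested, threshold 0.05), per antibody, 2 libraries against 2. An SE was obtained from the fold change and its F statistic (their quotient, with the root of F) and is approximate. The use of library sizes over the genes that passed the filter was settled after a first run with library sizes over all gene rows had been seen. DESeq2 1.42.0, other scalings, no filter, a replicate block and each library left out in turn were alternatives. This test was run on simulated data first. Enrichment over input used a pseudocount of 1 CPM. Intervals overlapped a window by at least 1 bp. Replicates of a group were not identical, and chi-square values over genes were 1.48 to 3.95 per degree of freedom. Other calculations used Python 3.11.15, pandas 2.3.3 and scipy 1.17.1.

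The 9 genes, the list of 42 and the markers were chosen with earlier results of these data known. All 9 were named, with the 3 largest rises and falls past the threshold in the list and the 3 genes most like Gas1. Spop, Ccnd2, Foxf1, Foxf2, Bcl2, Mycn and 9530036O11Rik were named after their values were seen. An item of the original pathway list is not reported here.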

Additional observations from a re-analysis of the deposited data

How the results depend on the processing

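Values of single libraries decide several results, and with 2 libraries a group a fit without 1 of them assumes that the lone library varies like the others. Leaving out 1 library at a time, the number of the 9 genes that fell in H3K27me3 ranged from 0 to 1 and the number that rose from 1 to 2, the median of the 9 from −0.21 to 0.27, and the pathway list from 3 to 7 higher with 0 lower. For EZH2, where Gas1 was chosen on this contrast and nothing is read from the count, the genes past the threshold as lower ranged from 0 to 4 of the 6 tested, the median of these 6 from −0.85 to −0.41 and the list from 0 to 12 lower, with 0 throughout when a control library was left out. Gli1 ranged from −2.45 to 0.27, Ptch1 from −0.63 to 0.34, Hhip from −0.21 to 0.0938 and Gli3 from −0.68 to 0.27, changing sign. With the library size over gene rows alone 1 gene rose in H3K27me3, 3 of the list fell and the median of the 9 was −0.62. DESeq2 gave 1 gene lower and 1 higher, and all counted reads as library size, no filter on low counts and the replicate block gave 1 higher each, Dhh being the gene lost. At a threshold of 4-fold over input 3 promoters were enriched in control and 4 in ex14D, and on all counted reads 8 in control and 7 in ex14D. The share over all genes was not counted at 4-fold. Same-numbered libraries had a correlation of deviations of −0.10 for H3K27me3 and −0.03 for EZH2, so no shared deviation was seen. Whether same-numbered libraries were processed together is not stated and cannot be told from this. The replicate block, a paired fit, otherwise kept 2 lower for H3K27me3, and a crossed block, added after seeing the data, gave 3 lower and 3 higher for H3K27me3. The causes of these changes were not tested. Over all alternatives for single genes, 133 values kept their direction and side of the threshold or, for EZH2, stayed within the spread. A call was lost by 13 and gained by 4, 4 of EZH2 moved beyond the spread and 5 of H3K27me3 changed sign. EZH2 values were sorted by the spread and not by sign. Those of Gli2 and Gli3, near 0, also changed sign in some alternatives, reaching 0.02052 and 0.0258.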
